A study of Mus musculus with 6 samples.

Results

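A group of transcription regulators that set the identity of cortical projection neurons was followed in mouse primary somatosensory cortex (S1) after conditional deletion of Lhx2, a LIM-homeodomain transcription factor. The 9 genes were Fezf2, Bcl11b, Tbr1, Satb1, Sox5, Tle4, Bcl6, Zfpm2 and Foxp2, out of 32831 named genes tested on the arrays. Every non-control probe carrying one of these gene names was taken, which gave 16 probes, of which 15 passed the filter on dim probes and 1, a Foxp2 probe, was not well above background on any array. RNA came from S1 of C57BL/6 mice at postnatal day 7, on 1 single-colour array per sample. Of the samples, 3 were labelled Lhx2 cKO (Lhx2 f/f;Nex-Cre) and 3 were controls (Lhx2 f/f), so all 6 samples carried floxed Lhx2 alleles, although the control titles read WT. Nex-Cre expresses Cre recombinase from the Neurod6 locus, which is switched on in newborn cortical excitatory neurons, so inhibitory neurons and glia in the same tissue are not its targets. Nothing in the labels shows that samples of a group were different animals, and the p-values therefore cover sample-to-sample spread, which may be technical. In bulk tissue, fewer cells of a type and less RNA per cell cannot be told apart.

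Excitatory neurons of the cortex differ in where their axons go, and a small network of transcription factors sets that choice. Fezf2 and Bcl11b (Ctip2) direct layer 5 neurons towards the brainstem and spinal cord, and Tbr1, Sox5, Tle4, Foxp2 and Zfpm2 (Fog2) belong to the layer 6 programme that sends axons to the thalamus. Satb1 is a chromatin organizer present in deep-layer neurons and in many inhibitory neurons, and Bcl6 is a transcriptional repressor that promotes neuron formation and is also found in immune cells.

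The arrays were alike in quality. The 75th percentile of processed signal, to which each array was scaled, lay between 892 and 1067 intensity units, between 86.7% and 91.1% of non-control spots were well above background, and 0 spots were saturated. All values below are log2 signal relative to that percentile unless intensity units are named, and a difference is always the cKO mean minus the control mean. The array barcodes placed the 6 arrays on 1 slide. Which position number in a barcode is the column and which the row was inferred, here and below. By that reading, the arrays labelled cKO 2 and 3 were the pair in the second column. The Lhx2 probe was at 4.43, 4.55 and 4.78 on the arrays labelled cKO, against 3.49, 3.51 and 3.44 on control arrays, a difference of 1.1 (2.15-fold, adjusted p = 0.0889, limma). A lower Lhx2 signal was thus absent from the arrays labelled cKO. The labels do not state which part of the gene was removed, so whether this probe lies in it was not tested. Signal of the Y-linked genes Ddx3y, Eif2s3y and Kdm5d was present on control arrays 1 and 3, and absent from control 2 and all arrays labelled cKO. Control 2 was therefore not a technical repeat of control 1 or 3. Whether the other samples of a group were different animals is not shown. Sex was thus unbalanced between the groups. Between controls 1 and 3 and the arrays labelled cKO, sex and genotype cannot be told apart.

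Satb1 and Bcl6 were the members with the largest differences, and both were lower on every array labelled cKO than on every control array, by 2.36-fold and 2.0-fold. Fezf2, Tbr1 and Zfpm2 were higher by 1.26-fold to 1.51-fold at the probe of each whose groups did not overlap. Bcl11b differed by less than the spread between replicates at both of its probes. With limma and Benjamini-Hochberg adjustment over 50025 probes, 0 member probes passed an adjusted p of 0.05, and the share of all probes that passed was 0%. An unadjusted p under 0.05 was found at 7 member probes, 4 higher and 3 lower, and at 6.79% of all probes. The groups did not overlap at 6 member probes, in 6 different genes, against 12.7% of all probes. Of these, 3 were higher on the arrays labelled cKO, against 6.79% of all probes, and 3 were lower, against 5.87% of all probes. These counts were 2 and 2 with quantile normalization and on the authors' series matrix, and 7 and 4 without control 3. The median difference was 0.05 over the 15 member probes and 0.02 over all probes, and the median size of the difference regardless of sign was 0.23 over the member probes and 0.10 over all probes.

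**Figure D1:**
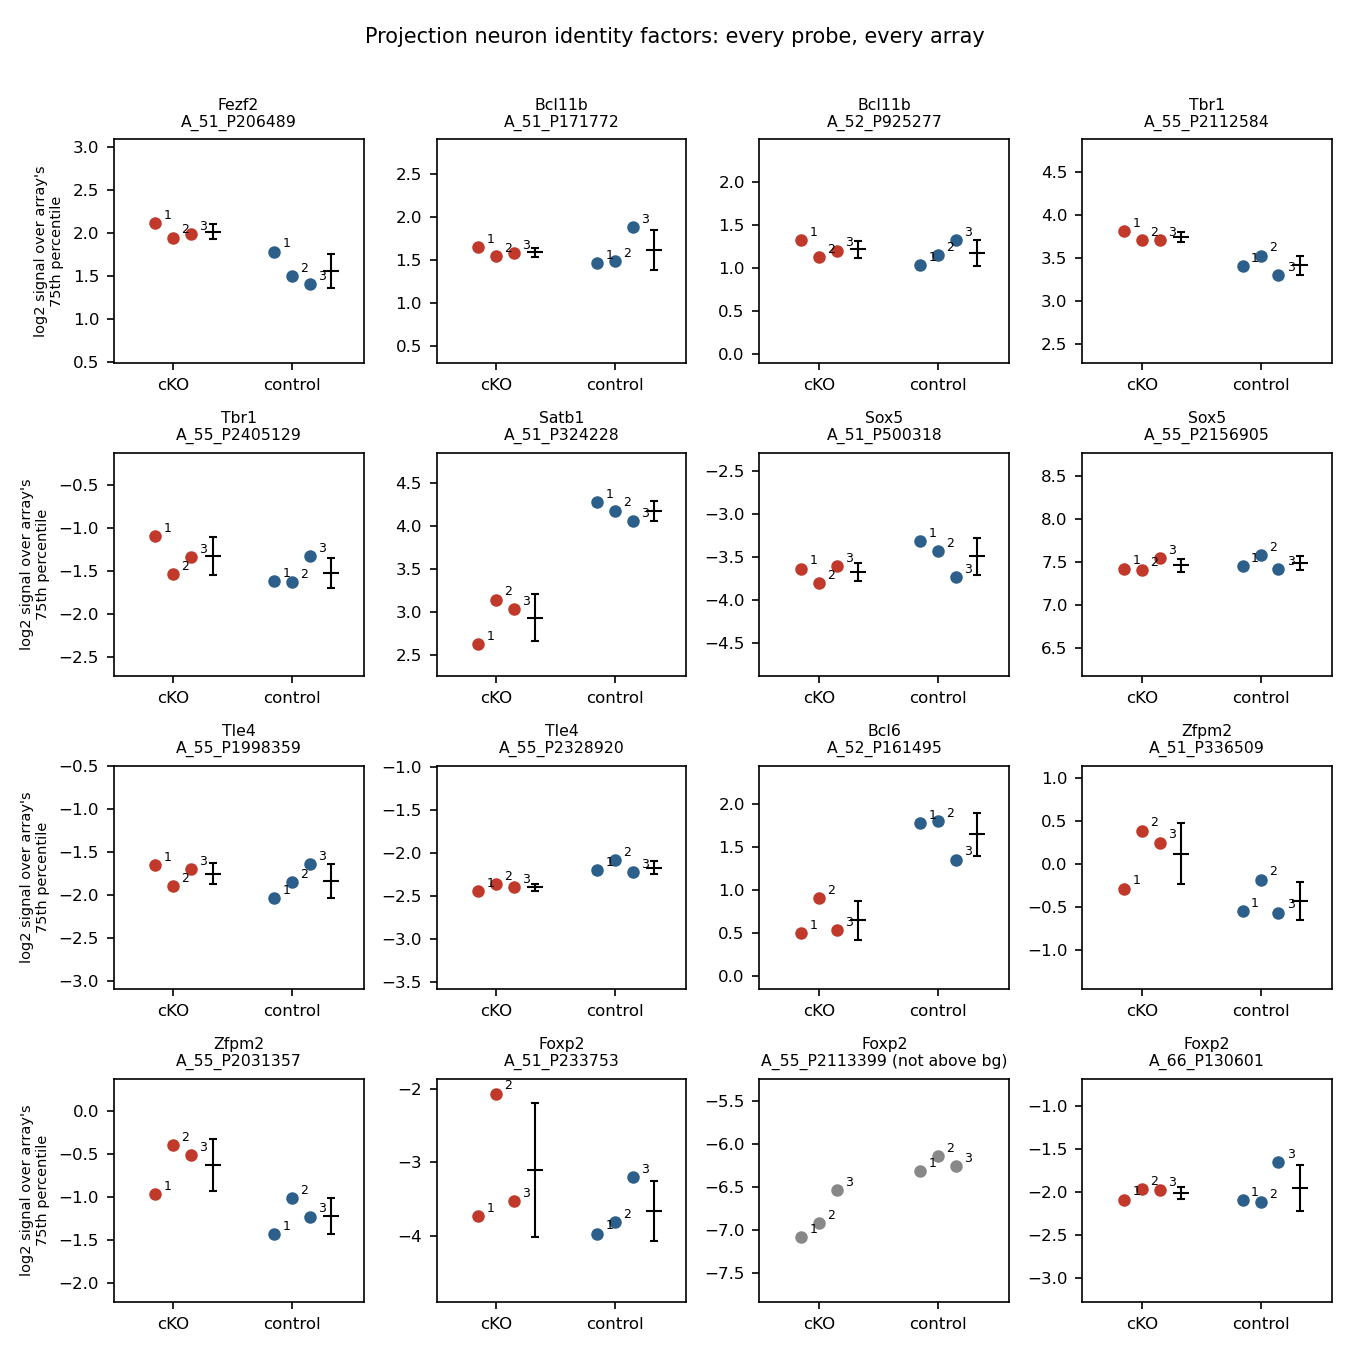
Each panel shows 1 probe of a member gene, with its signal on the vertical axis (log2, scaled to the 75th percentile of the array) and the 3 arrays labelled cKO (red) left of the 3 control arrays (blue). Numbers are replicate numbers, black marks are the mean with its SD, and grey points belong to the Foxp2 probe that was not well above background. The Satb1 and Bcl6 points of the 2 groups are separated, whereas those of both Bcl11b probes overlap.

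The single Satb1 probe lies at chr17:51879137-51879196 on the minus strand of mm9. Its first 30 bases are given because Satb1 had the largest difference among the members.
Satb1 A_51_P324228: caccggtatttcctaacaacatgagaagtc
Its processed signal was 6118, 8050 and 8369 intensity units on the arrays labelled cKO, against 20456, 19240 and 14791 units on control arrays. Relative to the 75th percentile, Satb1 was at 2.62, 3.14 and 3.03 on the arrays labelled cKO, against 4.28, 4.18 and 4.06 on control arrays. The highest array labelled cKO stayed well below the lowest control array. The means were 2.93 ± 0.27 for cKO and 4.17 ± 0.11 for control (SD, n = 3 each). The difference was -1.24 with an SE of 0.15 and a 95% interval between -1.61 and -0.87 (adjusted p = 0.1096, limma). Only 114 of the 50025 probes, or 0.228%, had a larger difference in either direction. Within the slide rows that held both groups, 1 array of each per row, the Satb1 difference was -1.14 in row 1 and -1.15 in row 2. The Satb1 call depended on the model. It passed with an adjusted p of 0.0129 after normexp background correction and 0.0130 after normexp with quantile normalization. It also passed with 0.0110 under an intensity trend and robust variances, and 0.0176 with array weights. With a replicate block it did not pass (adjusted p = 0.524, limma). With a term for Y-linked signal, which leaves control 2 as the only control compared, the difference was -1.25.

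Because Satb1 is also made by cortical inhibitory neurons, the interneuron markers stand beside it. All 10 interneuron markers were lower by sign on the arrays labelled cKO, with a median difference of -0.26 and 0 with an adjusted p under 0.05. The groups did not overlap at 3 of them, against 6.2% of all genes lower without overlap at their brightest probe. Their summed linear signal, in multiples of the 75th percentile, was 71.1, 64.9 and 58.4 on the arrays labelled cKO, against 75.8, 76.3 and 74.5 on control arrays. Gad2, which makes GABA, differed by -0.38 (adjusted p = 0.538), and Npy, a peptide of some interneurons, by -0.45 (adjusted p = 0.602). Lhx6, which specifies interneurons derived from the medial ganglionic eminence, differed by -0.10 (adjusted p = 0.998), and Sst, the peptide of one of their main classes, by -0.15 (adjusted p = 0.999). The part of interneurons in the Satb1 value was not tested. Every marker on these lists was well above background on at least 1 array.

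Bcl6 was measured by 1 probe at chr16:23965160-23965219 on the minus strand of mm9, and its first 30 bases are given because this gene had the next largest difference.
Bcl6 A_52_P161495: cagggtttggctgtgtctaaactgcattag
The processed signal was 1400, 1706 and 1488 intensity units on the arrays labelled cKO, against 3623, 3713 and 2271 units on control arrays. Relative to the 75th percentile, Bcl6 was at 0.50, 0.90 and 0.54 on the arrays labelled cKO, against 1.78, 1.80 and 1.35 on control arrays. Control 3 was the control array nearest to the cKO range, and the groups did not overlap. The means were 0.65 ± 0.22 for cKO and 1.65 ± 0.25 for control (SD, n = 3 each). The difference was -1.0 with an SE of 0.17 and a 95% interval between -1.41 and -0.59 (adjusted p = 0.2308, limma). A larger difference in either direction was found at 0.492% of all probes. Within the slide rows, the Bcl6 difference was -0.88 in row 1 and -1.27 in row 2. Array weights were the setting that brought Bcl6 past the threshold (difference -1.16, adjusted p = 0.0245).

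Bcl6 is also made outside neurons, and the microglial markers stand beside it. All 8 were lower by sign on the arrays labelled cKO, with a median difference of -0.64. The groups did not overlap at 5 of them, against 6.2% of all genes lower without overlap at their brightest probe. Their summed linear signal was 21.9, 16.7 and 13.7 multiples of the 75th percentile on the arrays labelled cKO, against 26.7, 27.2 and 26.1 on control arrays. Cx3cr1, the fractalkine receptor of microglia, differed by -0.82 (adjusted p = 0.363), and Csf1r, the receptor they need to survive, by -0.54 (adjusted p = 0.612). Astrocyte markers were also lower by sign, 8 of 8 with a median of -0.44. Of these, 7 did not overlap, against the same 6.2% of all genes. Gfap, the astrocyte intermediate filament, differed by -1.15 (adjusted p = 0.134). The summed astrocyte signal was 50.03, 50.8 and 46.0 on the arrays labelled cKO, against 66.9, 65.6 and 66.1 on control arrays. The part of these cell types in the Bcl6 value was not tested.

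Fezf2, the zinc-finger factor that selects the subcerebral fate of layer 5 neurons, was measured at chr14:13175057-13175116 on the minus strand of mm9. Its 60-base probe is shown as the one member of the layer 5 pair whose groups were apart.
Fezf2 A_51_P206489: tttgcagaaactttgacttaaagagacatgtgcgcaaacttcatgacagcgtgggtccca
Fezf2 was at 2.12, 1.95 and 1.99 on the arrays labelled cKO, against 1.79, 1.5 and 1.41 on control arrays. All arrays labelled cKO were above all control arrays, with control 1 closest to them. The means were 2.02 ± 0.09 for cKO and 1.56 ± 0.20 for control (SD, n = 3 each). The difference was 0.45 with an SE of 0.13 and a 95% interval between 0.15 and 0.76, or 1.37-fold (adjusted p = 0.4821, limma). It was 0.16 within slide row 1 and 0.49 within slide row 2.

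Bcl11b, the zinc-finger factor that acts downstream of Fezf2 in axon extension to the spinal cord, had probes 4915 bases apart on chr12, at chr12:109153847-109153906 and chr12:109148932-109148991. At the first, Bcl11b was at 1.65, 1.55 and 1.58 on the arrays labelled cKO, against 1.47, 1.49 and 1.89 on control arrays, a difference of -0.02 (95% interval -0.35 to 0.30, adjusted p = 0.999, limma). At the second, it was at 1.32, 1.13 and 1.20 on the arrays labelled cKO, against 1.03, 1.15 and 1.33 on control arrays, a difference of 0.05 (95% interval -0.23 to 0.32, adjusted p = 0.999, limma). Control 3 was the highest control array at both probes, and the cKO values lay inside the control range. Without control 3 the first difference was 0.11 and the second 0.13. Bcl11b is also made by striatal neurons, whose markers summed to 12.9, 9.76 and 9.58 on the arrays labelled cKO, against 11.5, 11.5 and 22.3 on control arrays, so control 3 was high there too. Their part in the Bcl11b values was not tested.

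Tbr1, the T-box factor that specifies layer 6 corticothalamic neurons and represses Fezf2 in them, had a bright and a dim probe. The probe at chr2:61652093-61652152 read 3.82, 3.70 and 3.71 on the arrays labelled cKO, against 3.41, 3.53 and 3.30 on control arrays. The lowest array labelled cKO lay above the highest control array, and the difference was 0.33 with an SE of 0.10 (1.26-fold, 95% interval 0.09 to 0.57, adjusted p = 0.5256, limma). The probe 8039 bases away on the genome, at chr2:61644054-61644113, read -1.10, -1.53 and -1.34 on the arrays labelled cKO, against -1.62, -1.62 and -1.32 on control arrays. There the groups overlapped through control 3, and the difference was 0.20 with an SE of 0.15 (adjusted p = 0.965, limma). Both probes were higher by sign. Within slide rows 1 and 2 the brighter probe differed by 0.30 and 0.18.

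Zfpm2, a zinc-finger cofactor of GATA factors that marks layer 6 corticothalamic neurons, was measured by probes that are not independent. They share 7 bases at chr15:40935062-40935121 and chr15:40935115-40935174, shown in capitals at the end of the first sequence and the start of the second.
Zfpm2 A_55_P2031357: ctcatcacatgcagcagaacatgTCAAATG
Zfpm2 A_51_P336509: TCAAATGaactaactgagttactaaagaaa
The first probe, shown by its last 30 bases, read -0.97, -0.39 and -0.52 on the arrays labelled cKO, against -1.43, -1.01 and -1.23 on control arrays. The groups did not overlap there, by a narrow margin, and the difference was 0.60 with an SE of 0.18 (1.51-fold, 95% interval 0.16 to 1.04, adjusted p = 0.5382, limma). The second, shown by its first 30 bases, read -0.28, 0.39 and 0.25 on the arrays labelled cKO, against -0.54, -0.18 and -0.56 on control arrays. Here the array labelled cKO 1 was below control 2, and the difference was 0.55 with an SE of 0.20 (adjusted p = 0.6601, limma). With a term for Y-linked signal the Zfpm2 differences were 0.38 and 0.30, and within slide row 1 they were 1.04 and 0.94.

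Tle4, a Groucho corepressor enriched in corticothalamic neurons, gave opposite signs at its probes, which lie 1644 bases apart on chr19. The first 30 bases of each are shown because only the second separated the groups.
Tle4 A_55_P1998359: ttatttttgctaattgctttgtctatgcca
Tle4 A_55_P2328920: tctggggacaagaaagctacggtttatgaa
The first, at chr19:14522562-14522621, read -1.66, -1.90 and -1.70 on the arrays labelled cKO, against -2.04, -1.85 and -1.64 on control arrays, a difference of 0.09 with an SE of 0.13 (adjusted p = 0.999, limma). The second, at chr19:14524206-14524265, read -2.44, -2.35 and -2.40 on the arrays labelled cKO, against -2.20, -2.08 and -2.22 on control arrays. Its groups did not overlap, and the difference was -0.23 with an SE of 0.09 (95% interval -0.45 to -0.01, adjusted p = 0.6935, limma). The probes of Tle4 therefore gave no single direction for the gene.

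Sox5, an SRY-box factor that controls the timing and sorting of deep-layer neurons, was measured by an ordinary probe and a repeat. The first 30 bases of both are given to show this, with each GGA triplet of the second in capitals.
Sox5 A_51_P500318: ttacaagcaaaaacgtcatcaagaagaaga
Sox5 A_55_P2156905: GGAGGAGGAGGAagaGGAGGAGGAGGAaga
All 60 bases of the second are purines, with 16 GGA triplets, and only 23 of the 55681 probes consist of A and G alone. The files place it at chr9:94466753-94466812, whereas the first lies at chr6:143781520-143781579. The repeat probe read 7.42, 7.41 and 7.54 on the arrays labelled cKO, against 7.45, 7.57 and 7.42 on control arrays, a difference of -0.02 (adjusted p = 0.999, limma). Given its sequence and place, this reading is not taken as a Sox5 level. The chr6 probe read -3.63, -3.79 and -3.60 on the arrays labelled cKO, against -3.31, -3.43 and -3.73 on control arrays. The groups overlapped through control 3, and the difference was -0.19 with an SE of 0.14 (95% interval -0.51 to 0.14, adjusted p = 0.957, limma). It was -0.08 after normexp background correction, -0.49 within slide row 1, and between -0.31 (without control 3) and -0.10 (without control 1) with 1 array left out.

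Foxp2, a forkhead factor of layer 6 neurons that is also made in the striatum and thalamus, had 3 probes. The probe at chr6:15147188-15147247 was not well above background on any array and has no fold. The probe at chr6:15391821-15391880 read -2.09, -1.96 and -1.98 on the arrays labelled cKO, against -2.09, -2.12 and -1.65 on control arrays, a difference of -0.06 (95% interval -0.41 to 0.29, adjusted p = 0.999, limma). Control 3, whose summed striatal markers were high, was highest here too, and without it the difference was 0.09. The remaining probe, A_51_P233753, has no coordinates in the files and read -3.73, -2.06 and -3.53 on the arrays labelled cKO, against -3.97, -3.81 and -3.20 on control arrays. Its difference of 0.55 had an SE of 0.45 (adjusted p = 0.982, limma) and rested on the array labelled cKO 2, without which it was 0.03. The 5 tested thalamic markers were lower by sign, with a median of -0.13, and summed to between 4.59 and 5.12 on the arrays labelled cKO, against 5.69 to 6.00 on control arrays. Their part in the Foxp2 values was not tested.

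**Figure D2:**
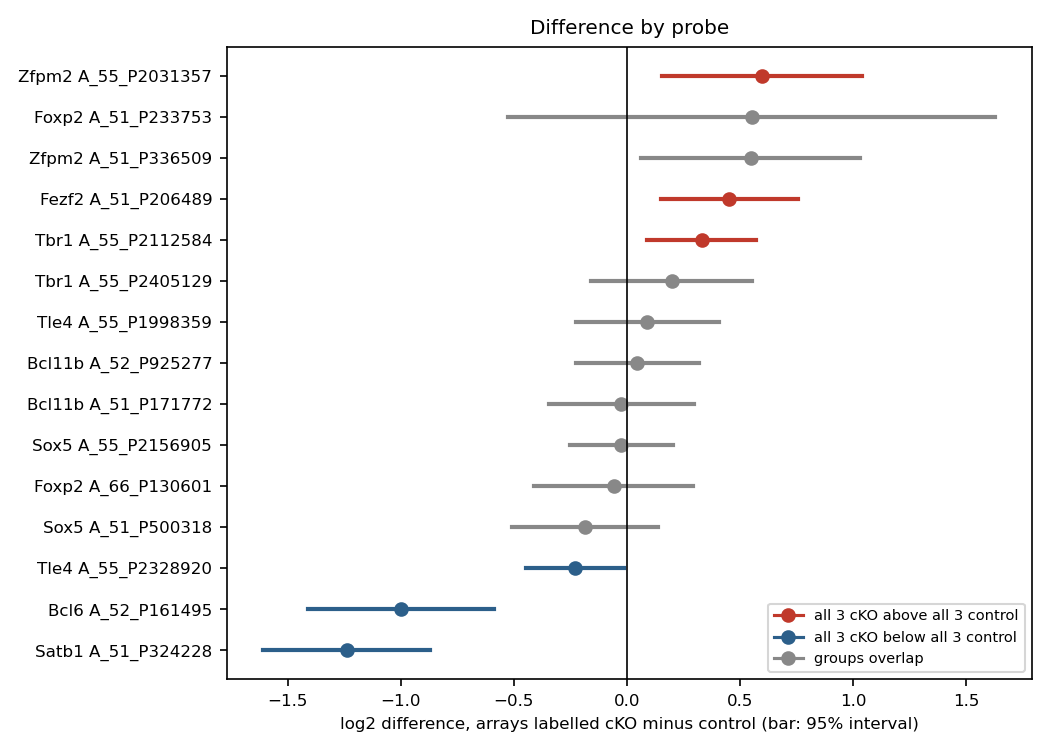
Points are the log2 difference of each tested member probe (arrays labelled cKO minus control, n = 3 each) and bars are 95% intervals. Red and blue mark the 6 probes whose groups did not overlap, and the Satb1 and Bcl6 intervals end at -0.87 and -0.59, below all other member probes' point estimates.

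**Figure D3:**
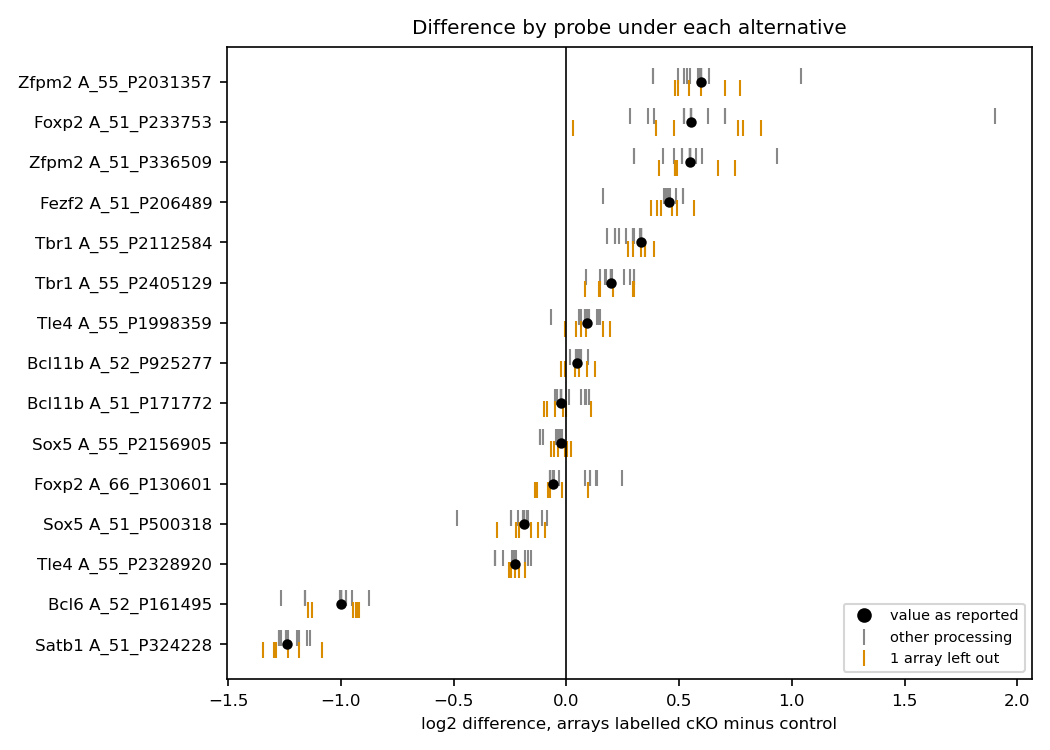
For each tested member probe, the black point is the difference reported above, grey ticks are other ways of processing and orange ticks leave out 1 array each, all as log2 difference (arrays labelled cKO minus control). Satb1 stayed between -1.34 and -1.09 and Bcl6 between -1.27 and -0.88, whereas the ticks of both Bcl11b probes lie on either side of 0.

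The array carries other probes near the members, chosen for description after the members' values were seen. Within 50 kb of the probes of 8 members lay 29 other probes, of which 27 were tested. Groups did not overlap at 5 of these (18.5%, against 12.7% of all probes), 1 beside Satb1 and 4 beside Bcl6, so the count lies near the share over all probes. Whether probes on a member's own strand lie within that member's transcript was not tested. The neighbour of Satb1 was C230085N15Rik, 17.5 kb away on the same strand at chr17:51896622-51896681. It read -0.25, 0.12 and 0.25 on the arrays labelled cKO, against 1.09, 0.99 and 1.03 on control arrays. The difference was -1.0 with an SE of 0.14 (2.0-fold lower, adjusted p = 0.1421, limma), and the array labelled cKO 1 was the lowest at this probe and at Satb1 alike.

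Near Bcl6, the files list probes against both strands of a long intergenic RNA interval, chr16:23992037-24001037. The 6 tested forward-strand probes, on the strand opposite to Bcl6, were all lower by sign with a median difference of -0.44. Of these, 3 were lower without overlap, against 5.87% of all probes. The 6 tested reverse-strand probes of the same interval had a median of -0.06, with 4 lower by sign and 1 not overlapping. The forward probe with the largest difference lay at chr16:23995160-23995219 and read -0.68, -0.41 and -0.47 on the arrays labelled cKO, against 0.37, 0.07 and 0.06 on control arrays. That difference was -0.69 with an SE of 0.13 (adjusted p = 0.2885, limma), with no overlap of the groups. The 3 forward probes of an adjoining interval, chr16:23989160-23992539, had a median of -0.16 and overlapped. Neighbours of Fezf2, Tbr1, Sox5, Tle4, Zfpm2 and Foxp2 all overlapped.

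**Figure D4:**
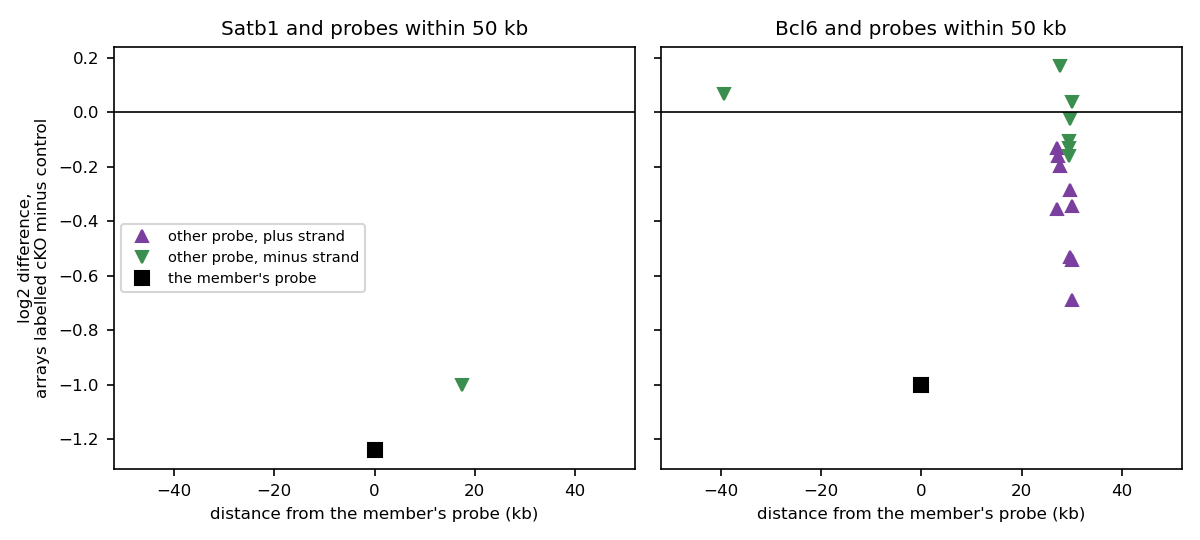
The log2 difference (arrays labelled cKO minus control) of each tested probe is plotted against its distance in kb from the Satb1 probe (left) or the Bcl6 probe (right), and black squares are the members themselves. The only neighbour of Satb1 lies at -1.0, and the plus-strand probes about 30 kb from Bcl6 lie below most of the minus-strand probes.

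LIM-homeodomain factors bind AT-rich DNA with a TAATTA core, so this motif, which reads the same on both strands, was searched in RefSeq promoter windows of GRCm38.p6, from 250 bases before to 50 bases after each start. The table held 13 windows for 7 of the members and none for Zfpm2 and Foxp2. The motif occurred in 1 of the 13, that of Tbr1, and in 5.29% of all 32851 windows. The 250 bases before the Tbr1 start, chr2:61804203-61804452 on the plus strand of GRCm38.p6, are shown with both matches in capitals, beginning 33 and 18 bases before the start.
Tbr1 promoter: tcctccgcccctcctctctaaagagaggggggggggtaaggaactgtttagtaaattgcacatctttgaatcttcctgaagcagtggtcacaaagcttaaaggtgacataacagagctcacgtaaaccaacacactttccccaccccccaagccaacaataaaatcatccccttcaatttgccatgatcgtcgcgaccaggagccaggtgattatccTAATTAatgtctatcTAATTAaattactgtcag
These matches are letters in a window and were not tested for binding.

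Related genes were then counted at the brightest probe of each gene. Over all 32831 genes, the groups did not overlap at 13.4%, with 7.15% higher and 6.2% lower on the arrays labelled cKO, and 7.12% had an unadjusted p under 0.05. No gene of the lists that follow passed an adjusted p of 0.05.

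Among 16 subcerebral projection neuron genes, which accompany Fezf2 and Bcl11b in layer 5, 5 were higher without overlap and 2 lower, with a median difference of 0.07. Ldb2, a LIM-domain binding cofactor, was at 2.74, 2.75 and 2.79 on the arrays labelled cKO, against 1.55, 1.36 and 1.5 on control arrays. The difference was 1.29, or 2.45-fold (adjusted p = 0.078, limma), with tight and separate groups. Tcerg1l differed by 1.09 (adjusted p = 0.107), Crym, a thyroid hormone-binding protein of layer 5, by 0.89 (adjusted p = 0.425), and Npr3, a natriuretic peptide clearance receptor, by 0.53 (adjusted p = 0.428). The 2 that were lower without overlap were Diaph3, by -0.62 (adjusted p = 0.435, limma), and Igfbp4, by -0.59 (adjusted p = 0.585, limma). By sign, 9 of the 16 genes were higher and 7 lower, and the median was -0.04 with the mean of a gene's probes.

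Among 14 tested corticothalamic genes, which accompany Tbr1, Tle4 and Foxp2 in layer 6, 5 were higher without overlap and 1 lower, with a median of 0.20. Rprm, a p53-induced cell-cycle protein used as a layer 6 marker, was at 4.66, 4.79 and 4.56 on the arrays labelled cKO, against 3.93, 3.69 and 3.90 on control arrays. It differed by 0.83, or 1.78-fold (adjusted p = 0.137, limma). Sla, an adaptor protein, differed by 0.58 (adjusted p = 0.346), Thsd7b by 0.76 (adjusted p = 0.394), and Ntsr1, the neurotensin receptor that marks corticothalamic neurons, by 0.27 (adjusted p = 0.673). By sign, 9 of the 14 genes were higher and 5 lower. Among the lower ones, Lxn differed by -0.24 without overlap and Syt6 by -0.25 with overlap. Without the array labelled cKO 1 the median of this list was -0.05.

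Among 16 callosal projection neuron genes, 2 were higher without overlap and 3 lower, with a median of 0.06. Nnmt, nicotinamide N-methyltransferase, differed by 0.72 (adjusted p = 0.136), and Cpne4, a calcium-dependent membrane-binding protein, by 0.41 (adjusted p = 0.521). Chn2, a GTPase-activating protein for Rac, differed by -0.70 (adjusted p = 0.364), and Ptn, the growth factor pleiotrophin, by -0.40 (adjusted p = 0.444). These genes thus lay on both sides of 0, and without the array labelled cKO 2 the median was -0.02.

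Of 40 other transcription factors of projection neurons, 4 were higher without overlap and 8 lower, with a median of -0.05. Emx1, a homeodomain factor of cortical excitatory neurons, was at 0.31, 0.98 and 0.90 on the arrays labelled cKO, against 1.64, 1.71 and 1.57 on control arrays, a difference of -0.91 (adjusted p = 0.322, limma). The LIM-only proteins Lmo3 and Lmo4 differed by -0.75 (adjusted p = 0.313) and -0.33 (adjusted p = 0.508), and Nfia, a nuclear factor I family member, by -0.36 (adjusted p = 0.502). The 4 that were higher without overlap were Tshz3 (0.57), Nr2f1 (0.34), Emx2 (0.32) and Etv1 (0.29). By sign, 18 of the 40 were higher and 22 lower.

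Of 17 family relatives of the members, 3 were higher without overlap and 2 lower, with a median of -0.08. Foxp4 differed by 0.27 (adjusted p = 0.584), Foxp3 by 0.51 (adjusted p = 0.667) and Tle2 by 0.18 (adjusted p = 0.807), while Fezf1 differed by -0.22 (adjusted p = 0.804). Foxp1, a forkhead relative of Foxp2, differed by -0.16 without overlap (adjusted p = 0.920). Bcl11a, the relative of Bcl11b, differed by -0.29 with overlapping groups (adjusted p = 0.968). By sign, 7 relatives were higher and 10 lower, the differences lay between -0.86 and 0.51, and without control 3 the median was 0.03.

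The tissue carried its excitatory markers in both groups. The 7 cortical excitatory markers had a median difference of 0.17 and summed to 51.6, 63.4 and 64.9 on the arrays labelled cKO, against 57.1, 53.6 and 51.9 on control arrays. Without control 3 this median was -0.03, and without the control arrays with Y-linked signal it was -0.01. Emx1, given above, was the one without overlap. The medians of the remaining lists were 0.02 for 5 hippocampal markers, -0.17 for 8 oligodendrocyte lineage markers and -0.34 for 9 striatal markers. The striatal median rested on control 3, without which it was 0.0044, and without the control arrays with Y-linked signal it was 0.012. The hippocampal median was -0.22 without the array labelled cKO 1. The 6 subplate markers had a median of -0.30 and summed to 16.1, 6.00 and 6.36 on the arrays labelled cKO, against 9.66, 11.3 and 11.5 on control arrays. The high sum of the array labelled cKO 1 rested largely on Nr4a2, at 3.34, 0.30 and 0.29 on the arrays labelled cKO. Cplx3, at 0.01, 0.09 and -0.09, did not set that array apart.

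**Figure D5:**
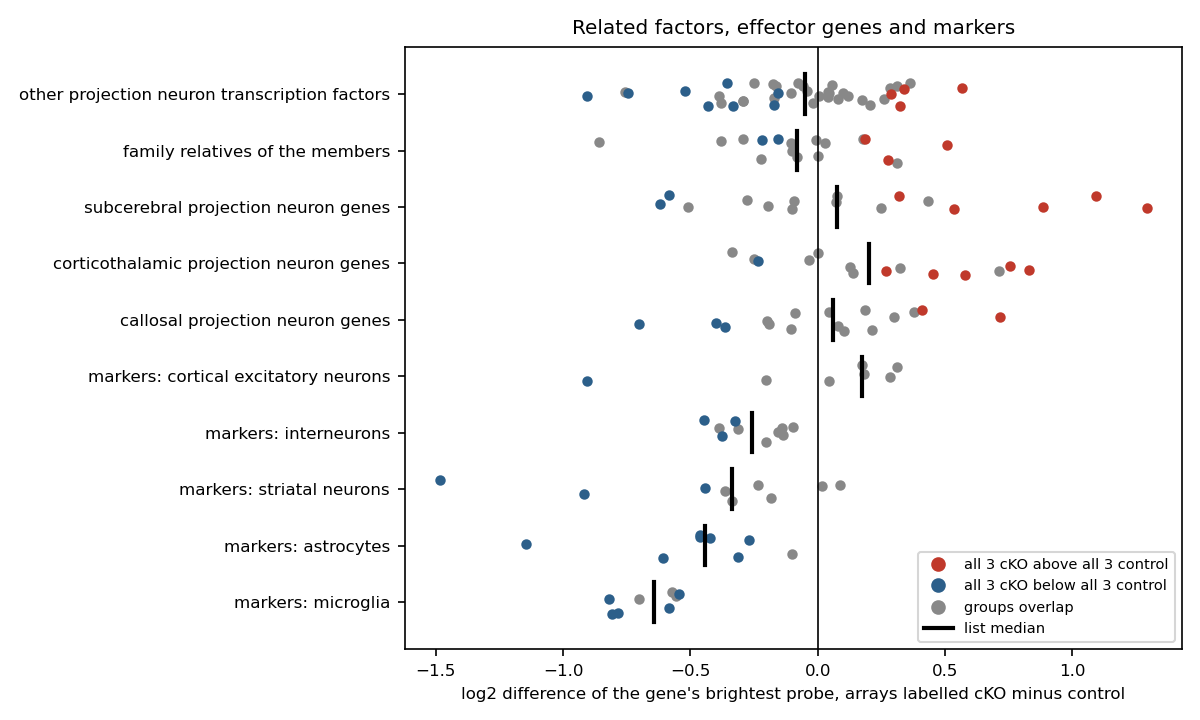
Each point is the log2 difference (arrays labelled cKO minus control, brightest probe) of 1 gene of a list, red or blue where the 3 arrays of each group did not overlap, and vertical bars are list medians. Microglial, astrocyte and interneuron markers all lie below 0, with medians of -0.64, -0.44 and -0.26. The projection neuron lists lie on both sides of 0.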

How the data were processed

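Each sample has a deposited scanner file of a 1-colour Agilent array, made with Feature Extraction 10.5.1.1. Its processed intensity is, per the file headers, background-subtracted and not scaled between arrays. The authors' series matrix holds log2 values whose scale and centring are inferred: 95% of its values lie within 0.00832 of log2 processed signals after quantile normalization and centring of each probe on its median. It served as an alternative. Its column medians lie between -0.0064 and 0.00645.

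Here, each array's 75th percentile was subtracted from its log2 processed signals. Controls and between 112 and 198 spots with an outlier flag on an array were dropped, and spots of a probe were averaged. Testing required a probe to be well above background on 3 or more of the 6 arrays. Of the 50039 probes that passed, 14 without a usable spot on some array were not tested. The 2 groups of 3 arrays were compared by limma (lmFit and eBayes, two-sided; R 4.3.3, limma 3.58.1) with Benjamini-Hochberg adjustment over 50025 probes. The number of arrays limits the precision.

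The members and lists were chosen with earlier results of these data known. Of each list, up to 4 genes with the smallest unadjusted p are named, with the defining markers; further genes were named with their values known. A list's gene takes its brightest probe, which for Sox5 is the repeat probe. Coordinates of probes were copied from the files (mm9), without a genome. Gene names were updated through a RefSeq table of GRCm38.p6 (28331 probes by accession, 2209 by symbol, 174 by synonym, 24967 unmatched). Alternatives covered scaling, background correction, filters, probe summaries, variance models, array weights, slide row, Y-linked signal, a replicate block and each array left out. The values of 1 list gene are not reported here.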

Additional observations from a re-analysis of the deposited data

How the results depend on the processing

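Over 24 alternatives, Satb1 kept its sign, with differences between -1.34 and -1.09, and so did Bcl6, between -1.27 and -0.88, Fezf2, between 0.16 and 0.57, and the brighter Tbr1 probe, between 0.18 and 0.39. Satb1 passed the threshold at -1.24 (normexp, 75th percentile), -1.27 (normexp, quantile), -1.24 (trend and robust variances) and -1.20 (array weights), and Bcl6 at -1.16 (array weights). The count of all probes called, 0 higher and 0 lower as reported, was 1 higher with quantile normalization, with the filter on all arrays and with the authors' matrix, 2 higher with the brightest probe or the mean of a gene's probes, 7 higher and 3 lower with median centring, 54 higher and 38 lower with normexp, 48 higher and 36 lower with normexp and quantile normalization, 62 higher and 46 lower with trend and robust variances, and 119 higher and 168 lower with array weights. Leaving out 1 array gave 0 to 7 higher and 0 to 3 lower calls, and 3 to 7 member probes higher and 3 to 4 lower without overlap; without the control arrays with Y-linked signal these were 7 and 5. They were 2 and 2 with quantile normalization, with normexp and quantile normalization and on the authors' matrix, and 3 and 2 with median centring, against 3 and 3 as reported.

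Signs of member probes turned only where differences were small. The mean of a gene's probes, which averages in the gene's other tested probe, gave 0.0113 for Bcl11b, 0.247 for Foxp2 and -0.0689 for Tle4, opposite in sign to the brightest probe of each. The Bcl11b probe A_51_P171772 was at 0.0635 with array weights, 0.0986 with a term for, or without the arrays with, Y-linked signal, and 0.0803 in slide row 1 and 0.0848 in row 2. Foxp2 A_66_P130601 was at 0.0830, 0.105, 0.130 (row 1) and 0.136 (row 2) under the same settings. With 1 array left out, Bcl11b A_51_P171772 lay between -0.0975 and 0.111, Bcl11b A_52_P925277 between -0.0223 and 0.125, Sox5 A_55_P2156905 between -0.0676 and 0.0216, Tle4 A_55_P1998359 between -0.00561 and 0.192, and Foxp2 A_66_P130601 between -0.140 and 0.0947. The cause of the moves with array weights, Y-linked signal, slide row and single arrays was not tested.

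With the replicate block the differences were the same by construction, -1.24 for Satb1 (adjusted p = 0.524) and -1.0 for Bcl6 (adjusted p = 0.529), and 0 probes were called. Samples with the same number did not deviate together, with correlations of -0.17, 0.07 and 0.16, so the numbers were not taken as pairs. Each within-row value compares 1 array with 1 array and has no test. By the inferred positions, all controls were in 1 slide column and 2 of the 3 arrays labelled cKO in the other. Column and group therefore cannot be told apart for those arrays. The chr6 Sox5 probe was dim, at 65.8 to 107 intensity units, and 1 Foxp2 probe was not well above background on any array.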
